A study of Mus musculus with 21 samples.

Results

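The genes described here are the vascular endothelial growth factor (VEGF) ligands and receptors, 9 of the 32285 genes in a single-cell RNA table of a mouse model of malignant melanoma (MM). They were taken by name and comprise 4 ligands (*Vegfa*, *Vegfb*, *Vegfc* and *Pgf*), 3 receptor tyrosine kinases (*Flt1*, *Kdr* and *Flt4*) and 2 co-receptors (*Nrp1* and *Nrp2*). All 9 were found in the table, and their levels were read in every cell type of 3 tissues and in sorted MM cells.

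In the study, fragments of MT-ret melanoma were placed under the skin of mT/mG mice, a reporter strain in which host cells carry the red protein tdTomato and, without a Cre recombinase, keep it. The reporter sits in Gt(ROSA)26Sor, and its allele is tm4(ACTB-tdTomato,-EGFP)Luo/J. The primary tumors were resected and metastases later formed in the lungs. The host cells of primary tumors (primary tumor TME, 4 libraries), the host cells of lung metastases (lung metastasis TME, 4 libraries) and the cells of lungs from mice without tumors (unchallenged lung, 4 libraries) were sorted as living tdTomato+ cells or as living tdTomato+ CD45- cells. MM cells, which lack tdTomato, were sorted from metastases (2 libraries) and from primary tumors (2 libraries). The labels do not state which of the gates each library went through, so the share of leukocytes in a library is not a property of the tissue alone. All cells had been frozen before sorting. The labels name no change in a VEGF gene in any animal. The sample labels give lung as the tissue of the primary tumors too, while the table of cells gives skin.

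VEGF ligands are secreted proteins that drive the growth and the permeability of blood and lymph vessels. VEGFA binds the receptors FLT1 and KDR, of which KDR carries most of the signal in endothelium and FLT1 also acts as a decoy. VEGFB and placental growth factor (PGF) bind FLT1, whereas VEGFC is the classical ligand of FLT4, the receptor of lymphatic endothelium. The neuropilins NRP1 and NRP2 bind VEGF ligands and class 3 semaphorins and assist the receptors. In the lung the capillary bed is built of general capillary cells and of thin, *Car4*-positive aerocytes that cover the gas exchange surface, and *Vegfa* is a classical target of hypoxia-inducible factors.

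The counted material was 100359 cells in 16 libraries, after 5 library names that repeated the barcodes and counts of others had been dropped. Libraries held 303 to 30419 cells, 1777036 to 60339415 unique molecular identifiers (UMIs, each standing for 1 captured RNA molecule) and a median of 1203 to 5356 UMIs per cell, with primary tumor replicate 6 and unchallenged lung replicate 6 the shallowest. In 87 pairs of libraries at least 1 barcode was shared, and at most 227. The labels give replicates 1-3 of each tumor tissue as 1 sample, so their 2 library names in metastasis and 3 in primary tumor were summed and count as 1 library. The cells analyzed as lung metastasis TME replicate 6, of which 21.3% are MM cells, were also deposited as sorted MM cells of metastasis replicate 6 and as TME replicate 8, and TME replicates 5 (metastasis and primary tumor) and 6 (primary tumor) also as replicates 7 and 8, under the names of other mice. Which of the names holds was not settled. MM cells also made up 53.9% of the cells of lung metastasis TME replicate 5. A level is given as UMIs of a gene per 1000000 UMIs of a cell type in a library (CPM), and since UMIs were counted at the 3′ end the transcript isoforms of a gene were not told apart. Cell types are clusters named by marker genes, without the 9 genes or the other VEGF genes among those used to cluster, and each name means no more than "like" that cell type. The endothelium (6745 cells in the 3 tissues) consisted of a general capillary cluster, an aerocyte cluster and the third endothelial cluster, which was left unnamed, and all 14 endothelial marker genes had UMIs in each of the 12 TME and lung libraries, with a sum of 9618 to 21810 CPM.

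The promoters of 4 genes, chosen after their values were seen, are shown. Of these genes, *Vegfa*, *Vegfc* and *Kdr* separated the capillary clusters of the lung without overlap, as did *Nrp1*, whose promoter is not shown. *Flt1* was not called between tissues in the endothelium. Between the capillary clusters 40% of all genes tested were called, so being called there does not set these genes apart. The promoters are given below as the 250 bases before the first listed start site in RefSeq (GRCm38.p6), read 5′ to 3′ on the strand of the gene. Capitals mark ACGTG and GCGTG, the core letters bound by hypoxia-inducible factors, and the GC box GGGCGG, on either strand. The windows lie at chr17:46032378-46032627 (*Vegfa*, minus strand), chr8:54077282-54077531 (*Vegfc*, plus strand), chr5:75978456-75978705 (*Kdr*, minus strand) and chr5:147726012-147726261 (*Flt1*, minus strand).
Vegfa: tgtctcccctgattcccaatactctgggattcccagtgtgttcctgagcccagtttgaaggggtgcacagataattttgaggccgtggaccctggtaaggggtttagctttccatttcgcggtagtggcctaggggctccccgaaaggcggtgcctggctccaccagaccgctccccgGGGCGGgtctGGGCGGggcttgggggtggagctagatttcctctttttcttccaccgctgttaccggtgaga
Vegfc: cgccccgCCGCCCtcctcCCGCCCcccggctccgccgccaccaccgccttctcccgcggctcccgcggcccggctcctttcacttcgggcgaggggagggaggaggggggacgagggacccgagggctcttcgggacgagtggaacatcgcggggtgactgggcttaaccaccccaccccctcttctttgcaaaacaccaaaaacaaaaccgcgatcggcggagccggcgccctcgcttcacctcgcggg
Kdr: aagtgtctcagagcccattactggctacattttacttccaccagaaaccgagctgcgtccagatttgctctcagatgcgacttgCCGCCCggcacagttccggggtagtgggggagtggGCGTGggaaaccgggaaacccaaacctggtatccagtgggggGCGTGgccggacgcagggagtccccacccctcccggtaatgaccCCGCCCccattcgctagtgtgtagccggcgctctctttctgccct
Flt1: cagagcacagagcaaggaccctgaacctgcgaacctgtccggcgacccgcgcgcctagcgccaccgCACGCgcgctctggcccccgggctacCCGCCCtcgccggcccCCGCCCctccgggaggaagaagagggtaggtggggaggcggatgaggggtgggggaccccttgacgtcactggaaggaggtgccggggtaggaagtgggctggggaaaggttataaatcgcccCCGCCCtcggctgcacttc
ACGTG was in none of these 4 windows. *Vegfa* has a second start site in RefSeq, whose window at chr17:46025164-46025413 lies inside the annotated gene and holds each of the 3 motifs 1 time. GCGTG occurred 2 times in the *Kdr* window and 1 time in the *Flt1* window, and GGGCGG occurred 2 times in the windows of *Vegfa*, *Vegfc* and *Kdr* and 3 times in that of *Flt1*. Of 32851 promoter windows of the same length, 16.6% held ACGTG, 28.2% GCGTG and 32.7% GGGCGG. A match describes letters and no binding was measured. In the GENCODE vM21 annotation of GRCm38 the genes span chromosome 17 from 46016993 to 46032369 (*Vegfa*), chromosome 8 from 54077606 to 54187096 (*Vegfc*), chromosome 5 from 75932827 to 75978458 (*Kdr*) and chromosome 5 from 147561604 to 147726011 (*Flt1*), so 3 bases of the *Kdr* window lie inside the annotated gene and the other 3 windows lie outside theirs.

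The ligands came from different cells. Among the cell types found in unchallenged lung, *Vegfa*, the main angiogenic ligand, was highest in general capillary cells (634 CPM ± 207, SD, n = 4), followed by the third endothelial cluster (234 ± 30.4, n = 4), fibroblasts (155 ± 122, n = 3) and club cells (126 ± 98.7, n = 2). No cluster was named as alveolar type 1 cells, although their markers were looked for, so no level of that cell type is given. The general capillary libraries lay above all of those of the third cluster, whereas the third cluster, fibroblasts and club cells overlapped. Aerocytes, next to the general capillary cells in the same vessel bed, measured 10.0, 4.52, 14.1 and 23.8 CPM in replicates 1, 4, 5 and 6, which is in the range of B cells (0, 11.9, 4.65 and 27.3 CPM).

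*Vegfc*, the lymphangiogenic ligand, was likewise endothelial in the lung, but in other cells. It was highest in the third endothelial cluster (327 CPM ± 83.1, n = 4), then in general capillary cells (76.3 ± 18.2, n = 4) and in monocytes (16.7 ± 3.91, n = 4), with no overlap between neighbors in this order. After thinning each cell to 1000 UMIs, 22.8% of the third cluster cells in lung held a *Vegfc* UMI (95% exact binomial interval 19.8 to 26.0%, median depth 3074 UMIs), against 0.672% of lung B cells (0.336 to 1.198%, median depth 1640), which give the background. Without thinning these shares were 47.9% and 1.33%.

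*Vegfb*, a ligand of FLT1 tied to metabolism rather than vessel growth, was highest in MM cells. It measured 150 and 205 CPM in MM cells sorted from metastases and 133 and 133 CPM in those from primary tumors (replicates 4 and 5), while no named cell type of unchallenged lung had a mean above 23.7 CPM. The lung types overlapped one another. *Pgf*, the placental ligand of FLT1, was near 0 in unchallenged lung, where fibroblasts had the highest mean (8.78 CPM ± 8.03, n = 3). In the sorted MM cells it measured 58.3 and 56.7 CPM in metastases and 11.9 and 13.4 CPM in primary tumors.

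The receptors were highest in endothelium. *Kdr*, the principal VEGFA receptor, was highest in lung aerocytes (3539 CPM ± 727, n = 4), above every library of general capillary cells (534 ± 180) and of the third cluster (376 ± 105), which overlapped each other. In lung replicate 6, which held few endothelial cells, alveolar macrophages nevertheless held 32.7% and ciliated cells 19.3% of all *Kdr* UMIs, with 24.6% and 28.2% of all UMIs, against 16.7% in aerocytes. *Flt1*, the high-affinity and decoy receptor, showed no such order in lung: the third cluster (1066 CPM ± 201), general capillary cells (990 ± 134) and aerocytes (737 ± 129) overlapped as neighbors. Outside the endothelium, *Flt1* reached 277, 334, 315 and 262 CPM in lung alveolar macrophages and 59.8, 85.3, 104 and 104 CPM in monocytes. Both lay above the B cells of the same libraries in replicates 1, 4 and 5 (0, 9.34 and 27.9 CPM), but in replicate 6 the B cells held 133 CPM, more than the monocytes. *Flt4*, the VEGFC receptor, was at 79.3 ± 14.4, 75.6 ± 13.9 and 54.1 ± 24.3 CPM in general capillary cells, aerocytes and the third cluster, which overlapped, and at 10.6 ± 7.68 CPM or less in every other named lung type.

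The co-receptors spread beyond the endothelium. *Nrp1* was highest in lung aerocytes (2899 CPM ± 596, n = 4), then in general capillary cells (880 ± 168) and the third cluster (712 ± 149), which overlapped, and then in fibroblasts (406 ± 89.6, n = 3) and alveolar type 2 cells (342 ± 63.8, n = 2), which overlapped. *Nrp2*, a co-receptor of lymphatic and venous endothelium, was highest in the third cluster (175 ± 41.0) and in fibroblasts (131 ± 60.4, n = 3), which overlapped, and low in general capillary cells and aerocytes (the plotted means are 9 and 3 CPM). MM cells held almost no *Kdr*, *Flt1* or *Flt4* in either site.

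**Figure D1:**
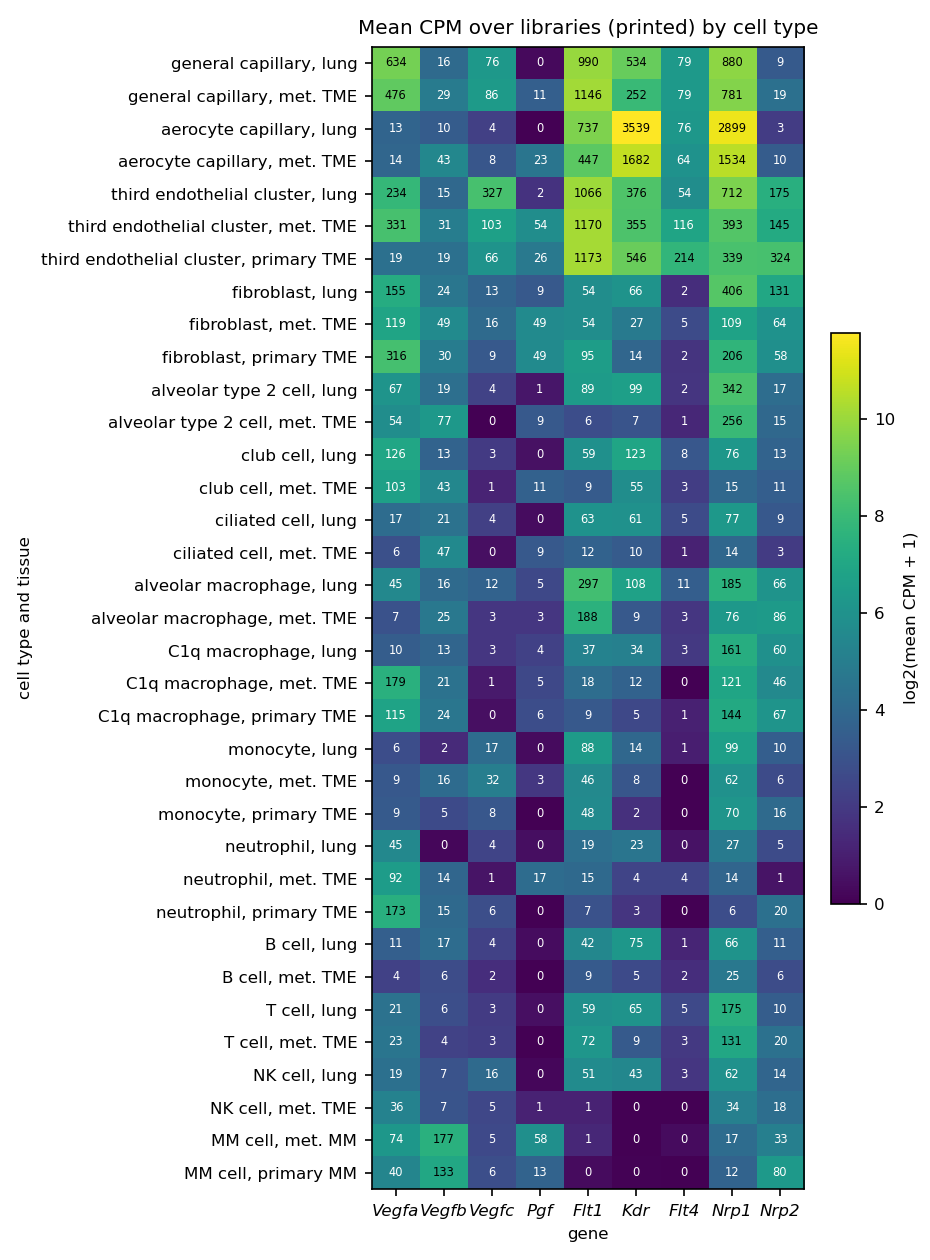
Mean CPM of each gene (columns) in each cell type and tissue (rows), printed in the cells and colored by log2(mean CPM + 1), over libraries with at least 20 cells of the type; met. TME is the lung metastasis TME and primary TME the primary tumor TME. *Kdr* and *Nrp1* are brightest in aerocytes (3539 and 2899 CPM in lung), *Vegfa* in general capillary cells (634 CPM), and *Vegfb* in MM cells.

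The genes with the most similar profile over 43 cell type and tissue combinations differed from member to member. These are Pearson correlations of log2 CPM across combinations that share libraries and depth, among 17309 genes, and are given as a description. *Kdr* ran with *Cdh5* (r = 0.955), *Cldn5* (0.947) and *Adgrf5* (0.945), genes of endothelial junctions and adhesion, and *Flt4* with *Robo4* (0.951), *Ushbp1* (0.949) and *Pcdh12* (0.944). *Flt1* ran with *Adcy4* (0.913), *Thbd* (0.907) and *Fzd4* (0.896), and *Nrp1* with *Ehd4* (0.843), *Raph1* (0.836) and *Ly6c1* (0.830). For *Vegfb* the nearest genes were *Slc25a4* (0.913), *Bsg* (0.899) and *Eci2* (0.899), of mitochondrial and metabolic function, and for *Pgf* the mitotic cyclin *Ccnb1* (0.820) and *Cdc42ep5* (0.801). For the remaining genes the neighbors were *Selenon* (0.694), *Csf1* (0.683) and *Osmr* (0.658) for *Vegfa*, *Ptprr* (0.784), *Gm50130* (0.768) and *Lhx6* (0.763) for *Vegfc*, and *Fblim1* (0.817), *Slc39a13* (0.764) and *Arhgef40* (0.758) for *Nrp2*.

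Within the lung capillary bed the ligand and its receptor were split between the capillary cell types. In unchallenged lung *Vegfa* measured 942, 553, 494 and 548 CPM in general capillary cells and 10.0, 4.52, 14.1 and 23.8 CPM in aerocytes of replicates 1, 4, 5 and 6. *Kdr* measured 400, 365, 640 and 732 CPM in general capillary cells and 2874, 2991, 3916 and 4375 CPM in aerocytes. Neither gene overlapped between the clusters. In a fit over the 4 libraries with the library as a block (edgeR quasi-likelihood test, Benjamini-Hochberg over 9539 genes), *Vegfa* was 50.3-fold lower in aerocytes (log2 difference -5.65, SE 0.20, adjusted p = 1.954e-14) and *Kdr* 7.12-fold higher (2.83, SE 0.10, adjusted p = 1.311e-14). The clusters were built from other genes of these same cells, and *Kdr*, although not used for clustering, was among the 10 genes that led the aerocyte cluster.

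*Nrp1* measured 713, 777, 944 and 1085 CPM in general capillary cells and 2205, 2672, 3126 and 3592 CPM in aerocytes, a 3.43-fold difference (log2 1.78, SE 0.08, adjusted p = 4.906e-13 by edgeR). *Vegfc* lay on the side of *Vegfa*, with 60.7, 103, 71.5 and 70.5 CPM in general capillary cells and 23.6-fold less in aerocytes (log2 -4.56, SE 0.31, adjusted p = 3.468e-10 by edgeR). *Flt1* differed by far less, 1.30-fold lower in aerocytes (log2 -0.38, SE 0.09, adjusted p = 0.001764 by edgeR), and was not called without the block (adjusted p = 0.2002). *Flt4* (log2 -0.07, SE 0.13) and *Vegfb* (-0.47, SE 0.29) were not called, and *Pgf* and *Nrp2* were too low to be tested.

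**Figure D2:**
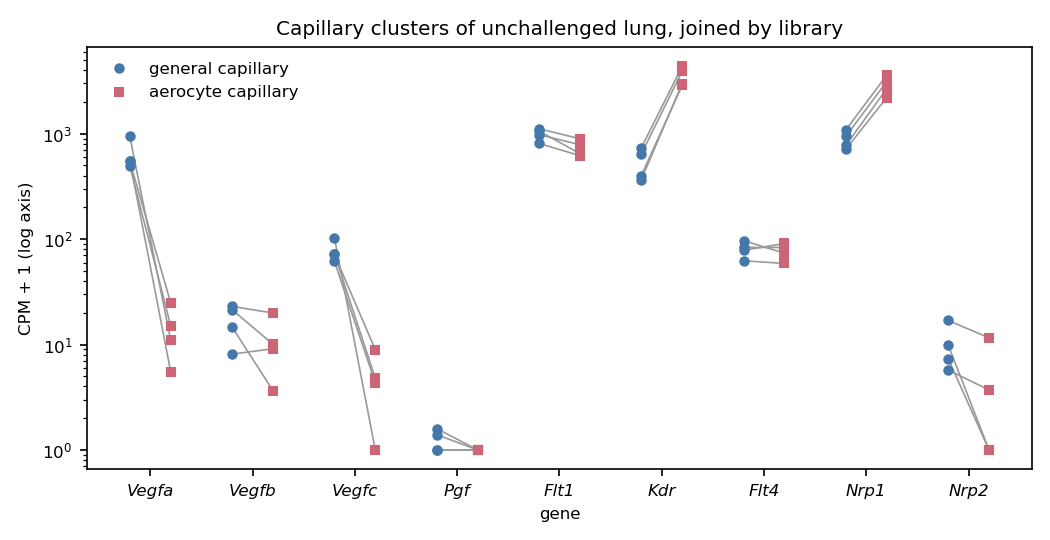
CPM + 1 (log axis) of the 9 genes in general capillary cells (circles) and aerocytes (squares) of the 4 unchallenged lung libraries, with lines joining the clusters of 1 library. The lines of *Vegfa* and *Vegfc* run down and those of *Kdr* and *Nrp1* run up in all 4 libraries, while those of *Flt4* are nearly level.

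In all, 5 of the 7 genes tested were called between the capillary clusters, 2 higher and 3 lower in aerocytes, where 40% of all genes tested were called (20.2% higher and 19.9% lower), so the number itself does not set the VEGF genes apart. In cells thinned to 1000 UMIs, *Kdr* was found in 93.2% of lung aerocytes (91.3 to 94.7%, exact, median depth 3505 UMIs) and 34.9% of general capillary cells (33.1 to 36.7%, median depth 3496), against a background of 6.53% in B cells (5.38 to 7.84%). *Vegfa* was found in 43.1% of general capillary cells (41.2 to 45.0%) and 1.52% of aerocytes (0.834 to 2.54%), with 2.20% in B cells (1.54 to 3.03%). These shares are pooled over libraries with different numbers of each cell type, and no order between aerocytes and B cells is read from them. The unthinned shares of *Vegfa* were 72.2%, 3.95% and 4.17%. In lung metastasis TME, general capillary cells held 481, 844, 230 and 348 CPM of *Vegfa* in replicates 1-3, 4, 5 and 6, and aerocytes held 14.8 and 13.2 CPM of *Vegfa* and 1680 and 1685 CPM of *Kdr* in replicates 5 and 6. *Kdr* in the general capillary cells of these libraries was 313, 252, 223 and 220 CPM.

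Other genes of the pathway differed between the clusters in both directions. Of 26 tested among 34 listed VEGF pathway partners, 9 were higher and 7 lower in aerocytes (median log2 0.06, all genes 0.02, with 20.2% of all genes called higher and 19.9% lower). *Ptprb*, a phosphatase that restrains endothelial receptors (-5.30, adjusted p = 3.088e-15), the semaphorins *Sema3g* (-5.57, 3.332e-14) and *Sema3c* (-2.90, 1.419e-14) fell, and *Prkca*, a kinase downstream of KDR, rose (3.05, 3.978e-10), all by edgeR. Of 12 tested among 14 listed genes that VEGF induces in endothelium, 3 were higher and 6 lower (median -0.61), with *Apln* (7.26, 9.876e-14), which is itself a marker used to name aerocytes, at one end and *Adamts1* (-5.01, 1.286e-13), *Angpt2* (-3.36, 2.258e-09) and *Cxcr4* (-2.85, 4.527e-09) at the other. Hypoxia genes were divided, 4 higher and 6 lower of 14 tested, led by *P4ha1* (1.12, 5.69e-07) and *Pdk1* (-2.43, 2.043e-06).

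Between tissues, most of the genes differed between the endothelium of primary tumors and that of the lung. *Vegfa*, *Kdr* and *Nrp1* were lower and *Pgf*, *Flt4* and *Nrp2* were higher than in unchallenged lung, so that 6 of the 9 genes were called (edgeR, 1 fit over the 12 libraries), where 28% of all genes tested were called (14.4% higher and 13.6% lower). In lung metastasis TME *Kdr* fell and *Pgf* rose against unchallenged lung, 2 of 9 where 3.72% of genes were called (2.93% higher and 0.794% lower). Between metastasis and primary tumor, *Vegfa* and *Nrp1* were higher and *Flt4* and *Nrp2* lower in the metastasis, 4 of 9 where 11.9% were called (6.52% higher and 5.33% lower). The comparisons share libraries and are not independent of each other. Primary tumors grew under the skin and no normal skin was sampled. Tumor and organ therefore cannot be told apart in any comparison with primary tumor, here or for the cell types below. The paper states that its metastasis samples held a little adjacent tissue without tumor. Cells of that tissue and of the metastasis itself were not told apart. The endothelium of primary tumors lay in the third cluster almost wholly (521 of 529 cells), whereas that of the lung was mostly capillary, so tissue and cluster composition cannot be told apart in the whole endothelium. Values in the third cluster alone, a comparison added after the data had been seen, are therefore given beside those of the whole endothelium. The subclusters of the third cluster were themselves unevenly spread over the tissues, and some of them mixed cell types (below). Tissue and subcluster cannot be told apart there either.

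*Vegfa* in endothelium measured 568, 437, 271 and 295 CPM in unchallenged lung (replicates 1, 4, 5 and 6), 363, 752, 90.2 and 189 CPM in lung metastasis TME (replicates 1-3, 4, 5 and 6) and 47.9, 14.3, 21.4 and 28.5 CPM in primary tumor TME (replicates 1-3, 4, 5 and 6). All primary tumor libraries lay below all others, and lung and metastasis overlapped. The level was 12.6-fold higher in metastasis than in primary tumor (log2 3.66, SE 0.58, adjusted p = 0.001016) and 14.1-fold lower in primary tumor than in lung (log2 -3.82, SE 0.58, adjusted p = 0.0001917), while metastasis and lung were not called apart (-0.16, SE 0.48, adjusted p = 0.9207 by edgeR). Within runs 1, 2 and 3 of the library names the difference of metastasis and primary tumor was 2.89, 5.63 and 2.36 and that of primary tumor and lung -3.54, -4.84 and -3.46 on the log2 scale of CPM + 1. In the third cluster alone *Vegfa* measured 253, 205, 210 and 266 CPM in lung, 817, 56.0 and 119 CPM in metastasis (replicates 4, 5 and 6) and 13.7, 14.3, 21.4 and 28.5 CPM in primary tumor, and both calls were kept (3.75, adjusted p = 0.003339, and -3.42, adjusted p = 0.000717, by edgeR).

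*Kdr* in endothelium measured 1131, 784, 1605 and 1906 CPM in unchallenged lung, 608, 359, 570 and 437 CPM in lung metastasis TME and 579, 473, 622 and 622 CPM in primary tumor TME. Every lung library was above every tumor library, and metastasis and primary tumor overlapped. *Kdr* fell 2.67-fold in metastasis (log2 -1.41, SE 0.29, adjusted p = 0.0118) and 2.18-fold in primary tumor (-1.13, SE 0.29, adjusted p = 0.008265) against lung by edgeR, with -0.89, -1.12 and -1.81, and -0.96, -0.73 and -1.49, within the runs. The clusters were unevenly spread over the tissues. Aerocytes, in which *Kdr* is highest, were 8, 10, 187 and 24 of the 92, 129, 1193 and 209 endothelial cells of metastasis, 2 of 529 in primary tumor and 162, 170, 460 and 170 of 806, 1546, 1738 and 503 in lung. Within the third cluster the log2 difference of *Kdr* to lung was 0.04 for metastasis (SE 0.29) and 0.59 for primary tumor (SE 0.26, adjusted p = 0.1235 by edgeR). Within aerocytes alone it was lower in metastasis (-0.98, SE 0.30) and within general capillary cells alone too (-1.03, SE 0.27), with adjusted p = 0.09891 and 0.2179 by edgeR, so neither was called. The call of metastasis against lung was also lost without metastasis replicate 6 (adjusted p = 0.05105 by edgeR) and without mixed subclusters (0.05321), and that of primary tumor against lung without mixed subclusters (0.113).

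*Nrp1* followed *Kdr* from lung to tumor. It measured 1155, 1073, 1544 and 1891 CPM in unchallenged lung, 736, 1012, 601 and 597 CPM in metastasis and 511, 294, 322 and 422 CPM in primary tumor, with no overlap between the 3 tissues. It was 3.41-fold lower in primary tumor than in lung (log2 -1.77, SE 0.27, adjusted p = 0.0002262 by edgeR), and -1.17, -1.86 and -2.21 within the runs. Against primary tumor it was higher in metastasis (0.87, SE 0.27, adjusted p = 0.04996 by edgeR; 0.53, 1.78 and 0.70 within the runs), a call that was lost with the replicate block (adjusted p = 0.0738) and kept in 8 of 18 other settings. Metastasis and lung were not called apart (-0.90, SE 0.27, adjusted p = 0.0821 by edgeR). In the third cluster *Nrp1* stayed lower in primary tumor than in lung (-1.02, adjusted p = 0.004939), while the difference between metastasis and primary tumor was 0.24 (adjusted p = 0.7997 by edgeR).

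*Nrp2* and *Flt4*, which act together in VEGFC signaling, went the other way. *Nrp2* measured 31.2, 22.5, 42.2 and 44.7 CPM in unchallenged lung, 61.4, 14.5, 82.0 and 145 CPM in metastasis and 308, 286, 361 and 297 CPM in primary tumor. All primary tumor libraries lay above all others, and the metastasis libraries spanned the lung range and more. *Nrp2* was 9.77-fold higher in primary tumor than in lung (log2 3.29, SE 0.44, adjusted p = 6.789e-05; 3.26, 3.61 and 2.89 within the runs) and 4.19-fold lower in metastasis than in primary tumor (-2.07, SE 0.43, adjusted p = 0.005467 by edgeR; -2.31, -4.21 and -1.58 within the runs). Within the third cluster, the main endothelial site of *Nrp2* in lung, the excess of primary tumor over lung was smaller but still called (0.93, adjusted p = 0.0245), and that over metastasis was not (-1.05, adjusted p = 0.07463 by edgeR).

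*Flt4* measured 61.0, 82.4, 74.8 and 67.9 CPM in unchallenged lung, 94.8, 95.04, 71.1 and 113 CPM in metastasis and 336, 108, 200 and 189 CPM in primary tumor. Primary tumor lay above lung in every library, and its lowest library lay below the highest of metastasis. *Flt4* was 3.04-fold higher in primary tumor than in lung (log2 1.60, SE 0.27, adjusted p = 0.0003657; 2.44, 0.38 and 1.43 within the runs) and 2.29-fold lower in metastasis than in primary tumor (-1.19, SE 0.27, adjusted p = 0.009889 by edgeR; -1.81, -0.18 and -1.11 within the runs). For the third cluster alone the first call was kept (1.97, adjusted p = 0.000778) and the second was not (-0.81, adjusted p = 0.3535 by edgeR). That cluster includes a lymphatic subcluster of 73 cells, drawn mainly from primary tumors, with high *Flt4* and *Nrp2* (below). The part of these cells in the third-cluster differences of *Flt4* and *Nrp2* was not tested.

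*Pgf* was the ligand that appeared in tumor endothelium. In unchallenged lung its endothelial level was 0.335, 0.584, 0.680 and 0 CPM, from 9 UMIs in 4593 cells. In metastasis it was 0, 1.61, 53.1 and 55.6 CPM and in primary tumor 20.0, 5.18, 45.6 and 30.0 CPM. *Pgf* was called higher than lung in primary tumor (adjusted p = 0.0004314) and in metastasis (adjusted p = 0.001708 by edgeR), and no fold is given since the lung rests on at most 4 UMIs per library. All primary tumor libraries and metastasis replicates 4, 5 and 6 were above the lung, replicate 4 by a single UMI, and within runs 1 and 2 the log2 difference to lung was -0.42 and 0.72 against 5.42 in run 3. In the third cluster alone *Pgf* measured 0, 7.33, 2.00 and 0 CPM in lung, 10.1, 75.4 and 77.0 CPM in metastasis (replicates 4, 5 and 6) and 22.9, 5.18, 45.6 and 30.0 CPM in primary tumor. There it was also called higher than lung in metastasis (adjusted p = 0.0009665) and in primary tumor (adjusted p = 0.004454 by edgeR), and the lowest primary tumor library lay below the highest of lung. The zero in metastasis replicates 1-3 of the whole endothelium rests on 179272 endothelial UMIs and allows up to 16.7 CPM (3 counts).

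MM marker genes moved with *Pgf*, which MM cells also hold. Of 11 MM markers 8, 11, 11 and 11 had UMIs in the endothelium of metastasis replicates 1-3, 4, 5 and 6, with sums of 686, 582, 9743 and 2273 CPM, against 4 to 8 markers and 18.6 to 54.5 CPM in lung, where *Mlana* was at 0 in all 4 libraries, and 10 or 11 markers and 466 to 2211 CPM in primary tumor. Without the subclusters that mix cell types, *Pgf* remained called in metastasis (adjusted p = 0.001402) and in primary tumor (adjusted p = 0.0002211 by edgeR). MM cells within the libraries of metastasis replicates 5 and 6 held 46.4 and 41.7 CPM of *Pgf*. *Vegfb*, the other ligand of MM cells, was highest in the same replicate 5 (65.4 CPM, against 14.5 to 20.3 in the other metastasis libraries) and was not called in any endothelial comparison (log2 1.33, SE 0.48, adjusted p = 0.1539 by edgeR for metastasis and lung, and 1.66, adjusted p = 0.08468, in the third cluster). The part of MM RNA in the levels of *Pgf* and *Vegfb* was not tested.

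*Flt1* and *Vegfc* were not called in any of the 3 comparisons of the whole endothelium. *Flt1* measured 754, 996, 935 and 1096 CPM in lung, 1138, 1651, 733 and 1098 CPM in metastasis and 787, 1235, 1177 and 1484 CPM in primary tumor, and the 3 tissues overlapped. The log2 differences of *Flt1* were 0.33 (metastasis and lung), 0.43 (primary tumor and lung) and -0.11 (metastasis and primary tumor), each with an SE of 0.28, and in the third cluster alone they were 0.20, 0.19 and 0.0076. *Vegfc* measured 88.2, 110, 93.7 and 103 CPM in lung, 55.8, 116, 40.9 and 71.9 CPM in metastasis and 99.9, 55.7, 52.7 and 54.6 CPM in primary tumor. Within the third cluster, where *Vegfc* is concentrated in lung (393, 403, 242 and 269 CPM), it was lower in primary tumor (101, 55.7, 52.7 and 54.6 CPM; log2 -2.33, adjusted p = 0.000288) and in metastasis (212, 40.4 and 57.1 CPM; -1.98, adjusted p = 0.01048 by edgeR). The unnamed subclusters in which *Vegfc* was concentrated (below) held 484 of 501 and 154 of 170 cells from lung. The part of this uneven spread in the differences was not tested.

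**Figure D3:**
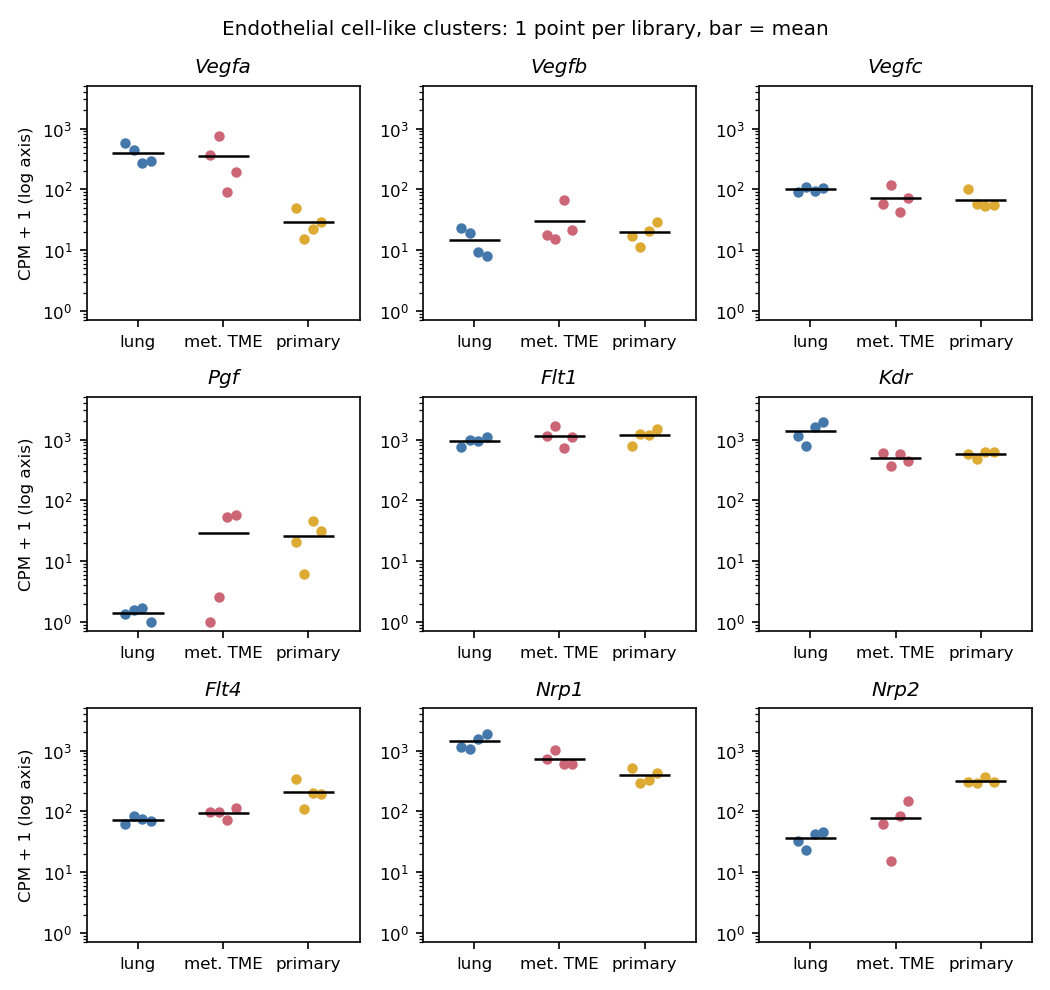
CPM + 1 (log axis) of each gene in the endothelium of unchallenged lung, lung metastasis TME (met. TME) and primary tumor TME, with 1 point per library and a bar at the mean of 4 libraries. Primary tumor points lie below all others for *Vegfa* and above all others for *Nrp2*, lung points lie highest for *Kdr* and *Nrp1*, and 2 of 4 metastasis points of *Pgf* lie above the primary tumor range.

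Other genes of the pathway were called in the endothelium as well. Of the 12 VEGF-induced genes tested, 9 were higher and none lower in primary tumor than in lung (median log2 1.97, all genes -0.02, with 14.4% of all genes called higher). They included *Esm1*, a tip cell proteoglycan (3.605, adjusted p = 6.374e-05), the basement membrane collagens *Col4a2* (2.97, 6.057e-05) and *Col4a1* (2.48, 8.311e-05) and the calcineurin inhibitor *Rcan1* (1.87, 0.0001593), all by edgeR. In metastasis 4 were higher and none lower than in lung (median 0.55, with 2.93% of all genes called higher), namely *Trp53i11* (2.65, 0.01267), *Col4a2* (1.75, 0.01572), *Esm1* (2.10, 0.02038) and *Col4a1* (1.40, 0.02589). Set against primary tumor, 6 were lower in metastasis and none higher (median -1.05, all genes 0.04, with 5.33% of all genes called lower), among them *Insr* (-2.01, 0.001365), *Rcan1* (-1.76, 0.001882), *Nr4a1* (-2.21, 0.01517) and *Esm1* (-1.51, 0.04211). In the third cluster alone 9 of 12 were higher in primary tumor than in lung (median 2.19, with 21.4% of all genes called), 7 were higher in metastasis than in lung (median 2.15, 8.65% called) and 1, *Rcan1*, was lower in metastasis than in primary tumor (median -0.21, 4.34% called), so *Insr*, *Nr4a1* and *Esm1* were not called there in the latter comparison. Markers of stromal and myeloid cells moved with these genes. The 12 fibroblast markers, which include other collagens, summed to 751 to 2548 CPM in primary tumor endothelium (6 to 11 with UMIs), 100 to 1085 CPM in metastasis (3 to 12) and 55.8 to 536 CPM in lung (9 to 12), and the 9 C1q macrophage markers to 301 to 1350 CPM (3 to 9), 167 to 472 CPM (7 to 9) and 62.5 to 216 CPM (all 9). In the third cluster alone the fibroblast markers summed to 856 to 2548, 754 to 1492 and 511 to 1881 CPM in primary tumor, metastasis and lung. The part of RNA from such cells in the list results was not tested.

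Of all genes tested in the endothelium, 14.4% were higher and 13.6% lower in primary tumor than in lung. The shares were 2.93% and 0.794% for metastasis against lung and 6.52% and 5.33% for metastasis against primary tumor. Of the 27 pathway partners tested, 8 were higher and 9 lower in primary tumor than in lung (median -0.43), led by the nitric oxide synthase *Nos3* (1.94, adjusted p = 2.76e-05), the semaphorin receptor *Plxnd1* (2.13, 5.652e-05), the adaptor *Shc1* (1.41, 0.0002074) and *Sema3d* (5.11, 0.0002165), all by edgeR. Metastasis and lung differed in 1 of the 27, *Sema3d* (4.12, 0.008746), near the 3.72% of all genes called in either direction. Metastasis and primary tumor differed in 9, of which 4 were higher and 5 lower (median -0.02), led by *Plxnd1* (-1.91, 0.0006311) and *Nos3* (-1.39, 0.001809). Of 18 hypoxia genes tested, 8 were higher and 1 lower in primary tumor than in lung (median 0.68) and 8 higher and none lower in metastasis than in lung (median 1.04). The glucose transporter *Slc2a1* rose in primary tumor (2.94, 1.348e-05) and in metastasis (1.78, 0.005888), whereas *Hilpda*, a lipid droplet protein, fell in primary tumor (-3.01, 5.962e-05). Metastasis and primary tumor differed in 5 of the 18, with *Ankrd37* (2.39, 0.0007411), *Hilpda* (2.42, 0.001152) and *Bnip3* (1.60, 0.01036) higher and *Ndrg1* (-1.64, 0.002056) and *Slc2a1* (-1.16, 0.02633) lower in the metastasis. In the third cluster alone 5 of 26 pathway partners were higher and 7 lower in primary tumor than in lung, 1 higher and 1 lower in metastasis than in lung, and 2 higher and 2 lower in metastasis than in primary tumor. Of all genes tested in that cluster, 21.4%, 8.65% and 4.34% were called in these comparisons, so the count of metastasis and lung is near the share of all genes. *Plxnd1* (1.09, 0.002666), *Shc1* (1.12, 0.009285) and *Sema3d* (3.196, 0.01108) stayed called there in primary tumor against lung and *Nos3* did not (0.54, 0.2679, all by edgeR). Of 17 hypoxia genes, 7 were higher and 2 lower in primary tumor than in lung and 7 higher and none lower in metastasis than in lung in that cluster, where *Slc2a1* stayed called in both (2.14, 0.0002418, and 1.74, 0.008388) and *Hilpda* in primary tumor (-1.14, 0.01881), while metastasis and primary tumor differed in 1, *Ankrd37* (2.47, 0.001428 by edgeR).

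Subclusters of the third endothelial cluster carried different receptor sets. Their levels are pooled over libraries, with 95% Poisson intervals that cover counting error only, and were not tested. A lymphatic subcluster of 73 cells, named by *Prox1*, *Mmrn1*, *Ccl21a* and *Reln* and drawn mainly from primary tumors (50 cells), held *Flt4* at 858 CPM (771 to 952) and *Nrp2* at 771 CPM (689 to 860), with *Flt1* at 14.5 CPM (5.32 to 31.6) and *Nrp1* at 7.25 CPM (1.495 to 21.2). It had no *Vegfc* UMI, which allows up to 8.91 CPM. An arterial subcluster of 159 cells, mainly of lung, held *Vegfa* at 542 CPM (489 to 599), *Kdr* at 105 CPM (82.2 to 132) and *Nrp2* at 4.25 CPM (0.876 to 12.4). *Vegfc* was concentrated in 2 unnamed lung subclusters, 1 of 170 cells led by *Cyp1a1* and *Npr3* (496 CPM, 448 to 549) and 1 of 501 cells (280 CPM, 254 to 307). The latter had 3 of 9 classical monocyte and 3 of 6 club cell markers raised beside 5 of 8 venous ones, and was not counted as mixed.

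The tumor tissues had subclusters of their own. An unnamed subcluster of 125 cells, 121 of them from primary tumors and led by *Abcc9*, *Igfbp3* and *Esm1*, held *Flt1* at 2618 CPM (2514 to 2726) and *Kdr* at 1093 CPM (1026 to 1163). It had 4 of 12 fibroblast markers raised beside 4 of 9 general capillary and 3 of 14 endothelial ones, and was not counted as mixed. An unnamed subcluster of 241 cells, 229 of them from metastases (193 from replicate 5) and led by *Ildr2*, *Apln*, *Trp53i11* and *Angpt2*, held *Pgf* at 89.8 CPM (72.1 to 110.5). A cycling subcluster of 58 cells, led by *Cenpf*, *Top2a* and *Mki67* and found in both tumor tissues but not in lung, held *Pgf* at 148 CPM (107 to 200). Another 5 subclusters (1, 3, 7, 8 and 11, of 322, 208, 109, 81 and 46 cells) were called mixed. In them more markers of MM cells, C1q macrophages or fibroblasts were raised than of any endothelial list. Subclusters 1 and 11, with MM markers, held 319 and 46 of the 788 metastasis cells of the third cluster. Subcluster 3, with C1q macrophage markers, held 194 of its 521 primary tumor cells. In metastasis replicate 5 the third cluster held MM markers at a sum of 10290 CPM and endothelial markers at 8889 CPM.

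**Figure D4:**
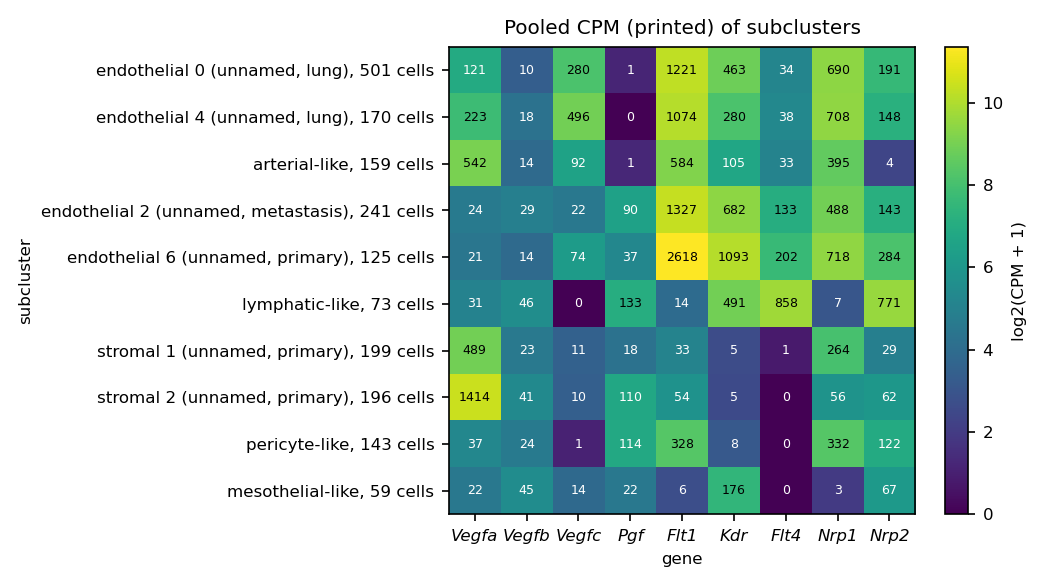
Pooled CPM of each gene (columns) in selected subclusters of the third endothelial cluster and of the tumor fibroblast cluster (rows, with their cell numbers), printed in the cells and colored by log2(CPM + 1). *Flt4* and *Nrp2* are highest in the lymphatic row (858 and 771 CPM), *Flt1* and *Kdr* in endothelial 6 (2618 and 1093 CPM), *Vegfc* in endothelial 4 (496 CPM) and *Vegfa* in stromal 2 (1414 CPM).

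In the tumor tissues *Vegfa* also came from cells other than endothelium. The share of all *Vegfa* UMIs of a library that came from general capillary cells was 90.0, 85.7, 55.0 and 10.8% in unchallenged lung, where these cells held 27.3, 26.0, 9.29 and 0.822% of all UMIs. In primary tumors C1q macrophages held 82.1 and 72.6% of the *Vegfa* UMIs of replicates 1-3 and 4, with 73.0 and 81.8% of all UMIs, and fibroblasts held 85.0 and 97.7% in replicates 5 and 6, with 48.1 and 79.8% of all UMIs. In metastasis the leading source was C1q macrophages in replicates 1-3 (44.9%), general capillary cells in replicate 4 (68.6%) and MM cells in replicates 5 and 6 (54.8 and 32.5%, with 72.3 and 29.9% of all UMIs). The shares depend on which cells a library holds, and the sort gate of each library is not given.

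As a level per cell type, *Vegfa* of C1q macrophages was higher in tumor tissues. It measured 3.70, 7.16, 5.16 and 24.3 CPM in unchallenged lung, 122, 376, 10.4 and 209 CPM in metastasis and 167 and 62.1 CPM in primary tumor (replicates 1-3 and 4). Both primary tumor libraries and 3 of 4 metastasis libraries lay above all lung libraries. For C1q macrophages alone, an alternative added after the data had been seen, the log2 difference to lung was 3.74 in metastasis (adjusted p = 0.003453) and 3.23 in primary tumor (adjusted p = 0.01183 by edgeR), and without lung replicate 6, the shallowest lung library, 4.83 (0.005456) and 4.33 (0.01483). In all macrophages together, the comparison as designed, in which alveolar macrophages make up most of the lung cells, *Vegfa* was not called in metastasis (1.99, adjusted p = 0.1306) or primary tumor (1.99, adjusted p = 0.06396 by edgeR). Within runs 1 and 2 the difference of primary tumor and lung was 3.51 and 0.77. In thinned cells, pooled over libraries, 10.7% of C1q macrophages in metastasis (7.41 to 14.9%, median depth 5389 UMIs), 6.22% in primary tumor (5.36 to 7.17%, 5099) and 1.57% in lung (0.719 to 2.96%, 1682) held a *Vegfa* UMI, with 2.20% in lung B cells. The intervals cover counting error and not the spread between libraries.

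*Flt1*, the macrophage receptor of the family, showed the opposite pattern. Over all macrophages it measured 231, 153, 262 and 250.3 CPM in unchallenged lung, 113, 54.5, 71.7 and 64.4 CPM in metastasis and 9.58 and 7.70 CPM in primary tumor, with no overlap between the tissues. It was 23.6-fold lower in primary tumor than in lung (log2 -4.56, SE 0.41, adjusted p = 7.807e-05), 2.63-fold lower in metastasis than in lung (-1.39, SE 0.28, adjusted p = 0.02563) and 8.998-fold higher in metastasis than in primary tumor (3.17, SE 0.39, adjusted p = 0.004402 by edgeR). The call of metastasis against lung was lost when metastasis replicate 5 or 6 or lung replicate 5 or 6 was left out (adjusted p = 0.07537, 0.1232, 0.08504 and 0.06312), and that of metastasis against primary tumor when primary tumor replicates 1-3 or 4 were (0.06625 and 0.2103 by edgeR), which leaves 1 library of that tissue. *Flt1* was the only member called in the latter comparisons (1 of 9 in each), where 1.79% of genes were called between metastasis and lung (1.53% higher and 0.265% lower) and 0.486% between metastasis and primary tumor (0.415% higher and 0.0707% lower). Within runs 1 and 2 the differences were -4.46 and -4.15 (primary tumor and lung) and 3.42 and 2.67 (metastasis and primary tumor), and within runs 1, 2 and 3 they were -1.03, -1.48 and -1.90 (metastasis and lung).

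The kinds of macrophage were unevenly spread over the tissues. Alveolar macrophages, which hold the *Flt1*, were 0 and 4 cells of the 460 and 2453 macrophages of primary tumor, 157, 7, 8 and 9 of 299, 33, 51 and 93 in metastasis and 170, 39, 295 and 6734 of 225, 107, 364 and 7192 in lung. In C1q macrophages alone the difference of primary tumor and lung was -2.21 (adjusted p = 0.02379) and those of metastasis were not called (-1.11, 0.2516, against lung and 1.10, 0.9993, against primary tumor, by edgeR). Lung replicate 6 held the highest *Flt1* of lung C1q macrophages (84.1 CPM against 18.5 to 23.2 CPM), and without it the gene was too low in these cells to be tested. In alveolar macrophages alone the log2 difference of metastasis and lung was -0.48, from 1 metastasis library with at least 20 such cells (replicates 1-3), so the spread within metastasis was not measured. Endothelial markers had UMIs in these macrophages too, 14 of 14 in every lung library with a sum of 282, 1162, 1669 and 1620 CPM, 14 of 14 with 363 and 271 CPM in primary tumor, and 5 to 14 of 14 with 188 to 717 CPM in metastasis.

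*Kdr* and *Vegfc* were also called lower in macrophages of primary tumor than of lung, so that 3 of 9 genes were called where 14.2% of all genes were (6.01% higher and 8.17% lower). *Kdr* measured 5.88, 20.7, 121 and 236 CPM in lung replicates 1, 4, 5 and 6 and 6.74 and 3.05 CPM in primary tumor (log2 -4.30, SE 1.10, adjusted p = 0.02031 by edgeR), with 0.17 and -2.42 within runs 1 and 2. Lung B cells carried it as well (43.5, 3.63, 149 and 106 CPM). The call was lost with the replicate block (adjusted p = 0.09091 by edgeR) and without either primary tumor library (0.1074 and 0.2241). In C1q macrophages alone *Kdr* was called (-3.04, adjusted p = 0.01158 by edgeR), but without lung replicate 6 it was too low there to be tested. The part of free endothelial RNA in this difference was not tested. *Vegfc* measured 0 and 0.833 CPM in the primary tumor libraries and 2.61, 12.4, 6.54 and 11.2 CPM in lung (-3.53, SE 1.06, adjusted p = 0.04207 by edgeR; -1.85 and -2.87 within the runs), a call that was lost without either primary tumor library or any 1 of lung replicates 4, 5 and 6 (adjusted p = 0.05772 to 0.2414). *Nrp1* and *Nrp2* of macrophages were not called in any comparison, at 48.4 to 293 and 31.3 to 89.7 CPM over the 10 libraries. *Vegfb* (9.20 to 44.8 CPM), *Pgf* (0 to 13.5 CPM) and *Flt4* (0 to 11.2 CPM) of macrophages were not called in any comparison either. Against lung the log2 differences of primary tumor were 0.78 (SE 0.44, adjusted p = 0.2746), 0.77 (SE 0.69, 0.504) and -2.37 (SE 0.85, 0.0841 by edgeR) for these genes, and those of metastasis 0.57 (SE 0.46), -0.18 (SE 0.85) and -1.13 (SE 0.85).

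Neutrophils held *Vegfa* in both tumor tissues. They measured 230 and 116 CPM in primary tumor (replicates 1-3 and 4), 114, 23.1 and 138 CPM in metastasis (replicates 1-3, 5 and 6) and 0, 44.1, 76.6 and 58.2 CPM in lung. Both primary tumor libraries lay above all lung libraries, and metastasis overlapped lung. No test across libraries was made for neutrophils.

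Fibroblasts carried *Vegfa* in every tissue without a called difference. They measured 295, 95.3 and 73.6 CPM in unchallenged lung (replicates 4, 5 and 6), 45.0 and 193 CPM in metastasis (replicates 5 and 6) and 216, 279 and 454 CPM in primary tumor (replicates 4, 5 and 6). Lung spanned a wide range, and the log2 differences were 1.18 (primary tumor and lung, SE 0.63, adjusted p = 0.2505), -1.53 (metastasis and primary tumor, SE 0.73, 0.5947) and -0.35 (metastasis and lung, SE 0.71, 0.8167 by edgeR). Within runs 2 and 3 the first of these was -0.45 and 2.07.

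**Figure D5:**
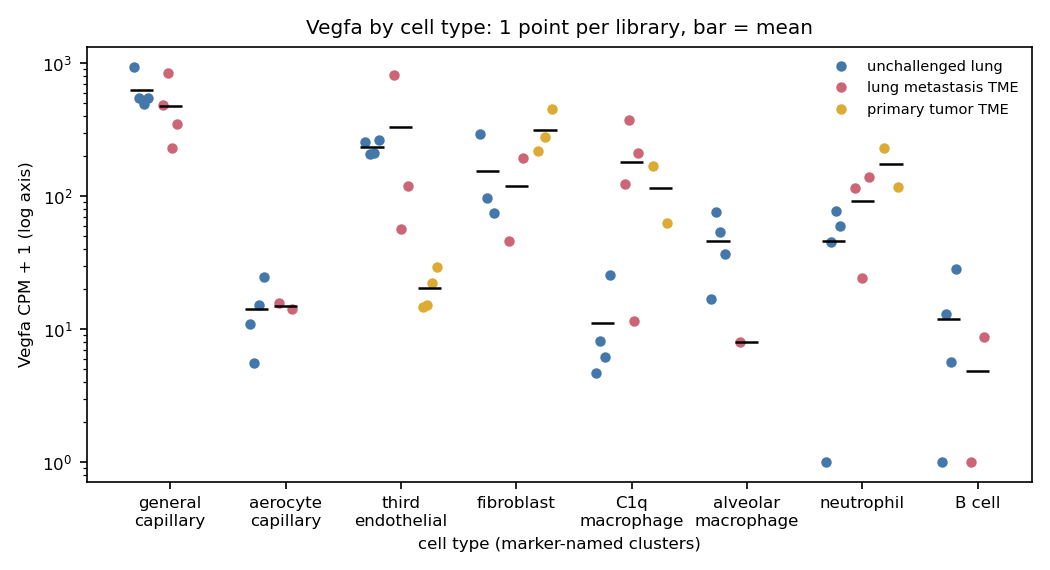
*Vegfa* as CPM + 1 (log axis) in 8 cell types, with 1 point per library holding at least 20 cells of the type and a bar at the mean, colored by tissue. Levels of general capillary cells and of the third endothelial cluster are high in lung, and those of the third cluster are low in primary tumor (13.7 to 28.5 CPM). C1q macrophages are low in lung (3.70 to 24.3 CPM) and at 62.1 to 376 CPM in the tumor libraries apart from metastasis replicate 5 (10.4 CPM).

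*Pgf* was higher in fibroblasts of primary tumor than in those of lung. It measured 5.84, 17.9 and 2.64 CPM in lung, 43.5 and 55.3 CPM in metastasis and 56.3, 59.7 and 30.7 CPM in primary tumor, so all tumor libraries lay above all lung libraries. It was called in primary tumor (6.16-fold, log2 2.62, SE 0.67, adjusted p = 0.034), with 3.07 and 2.40 within runs 2 and 3, and missed the threshold in metastasis (2.58, SE 0.71, adjusted p = 0.087 by edgeR). This was 1 of 8 genes tested, where 12.8% of all genes were called (5.64% higher and 7.16% lower), and it was kept in 8 of 14 other settings, lost without any 1 library other than lung replicates 5 and 6 (adjusted p up to 0.09799) and lost without mixed, pericyte and mesothelial subclusters (adjusted p = 0.07063 by edgeR). Lung and primary tumor fibroblasts lay in different clusters. Of 2638 lung fibroblasts in these libraries 2583 were in a cluster led by *Inmt*, *Clec3b* and *Ogn*, whereas of 2477 in primary tumor 1580 were in a cluster led by *Lum* and *Ccl11*, 893 in a cluster led by *Meg3* and *Col1a1* and 4 in that of the lung. The 648 metastasis fibroblasts were spread over them as 142, 182 and 324 cells. With 3 and 52 lung cells in the tumor clusters, tissue and kind of fibroblast cannot be told apart in any fibroblast result. In metastasis none of the 8 was called by edgeR against primary tumor (0.48% of genes called, 0.362% higher and 0.118% lower) or against lung (2.11% of genes called, 1.67% higher and 0.444% lower). Against primary tumor 0 members had an unadjusted p under 0.05 and 0 were called by DESeq2, which called 282 of 11038 genes. Against lung 2 members were called by DESeq2, which called 884 of 11038 genes. There 3 members had an unadjusted p under 0.05, for which no share of all genes is given. *Flt4* was too low to be tested. *Vegfb* (11.2 to 58.7 CPM over the 8 libraries), *Vegfc* (2.68 to 21.8 CPM), *Flt1* (10.9 to 140 CPM) and *Kdr* (0 to 155 CPM) were not called in any fibroblast comparison as reported, but *Kdr* of primary tumor against lung was called with the replicate block (below). Their log2 differences of primary tumor and lung were 0.65 (SE 0.56), -0.48 (SE 0.63), 0.74 (SE 0.79) and -2.16 (SE 1.07, adjusted p = 0.2173 by edgeR), and those of metastasis and lung 1.27 (SE 0.62), 0.19 (SE 0.71), -0.081 (SE 0.89) and -1.33 (SE 1.21).

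The co-receptors were highest in the lung libraries. *Nrp1* measured 491, 414 and 312 CPM in lung, 147 and 70.4 CPM in metastasis and 291, 203 and 124 CPM in primary tumor, all below the lung libraries. The differences to lung were -1.83 (SE 0.51, adjusted p = 0.08805) and -0.89 (SE 0.43, adjusted p = 0.2058 by edgeR) and were not called. *Nrp2* measured 199, 113 and 82.0 CPM in lung against 48.3 to 72.8 CPM in the 5 tumor libraries, with differences of -0.95 (SE 0.39, adjusted p = 0.1929) and -1.04 (SE 0.34, adjusted p = 0.07902 by edgeR). MM markers had UMIs in these fibroblasts in all tissues, at 7260 and 5168 CPM in metastasis (11 of 11 markers), 1647 to 7420 CPM in primary tumor (10 or 11) and 260 to 671 CPM in lung (2 to 9), while the fibroblast markers summed to 10720 to 45030 CPM. Endothelial markers summed to 584, 1334 and 1411 CPM in lung replicates 4, 5 and 6, 560 and 280 CPM in metastasis and 384.5, 528 and 801 CPM in primary tumor. In the same lung replicates alveolar macrophage markers summed to 11.7, 95.3 and 4502 CPM and club cell markers to 29.2, 2634 and 3298 CPM. The part of RNA from other cells in the fibroblast levels was not tested.

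Many hypoxia genes rose in fibroblasts and macrophages of the tumors. In fibroblasts 12 of 18 tested were higher and none lower in primary tumor than in lung (median log2 2.13, all genes -0.02, with 5.64% of all genes called higher), led by *Ero1l* (3.72, adjusted p = 0.003635), *Ldha* (2.40, 0.00507), *Higd1a* (2.01, 0.00507) and *Pgk1* (2.71, 0.006143) by edgeR, and 4 were higher in metastasis (median 1.52, with 1.67% of all genes called higher). In macrophages 13 of 19 were higher in primary tumor (median 2.29, with 6.01% of all genes called higher) and 11 in metastasis (median 2.39, with 1.53% of all genes called higher) and none lower, led by the vasodilator peptide *Adm* (4.39, 0.0009777) and by *Slc2a1* (4.28, 0.00272), respectively. In C1q macrophages alone 11 of 16 were higher in primary tumor (median 2.42) and 14 in metastasis (median 2.63) than in lung, where 8.29% and 7.65% of all genes were called. No hypoxia gene was called between metastasis and primary tumor in either class by edgeR. Of the pathway partners, 2 of 27 were lower in fibroblasts of primary tumor than of lung, near the 7.16% of all genes, namely *Vegfd*, a further ligand of FLT4 (-3.89, 0.01901), and *Pik3r1* (-1.30, 0.03611). In macrophages of primary tumor 9 of 27 were lower (8.17% of all genes), led by *Sema3g* (-6.16, 0.0008798), *Sema3c* (-5.59, 0.001528), *Ptprb* (-5.49, 0.002077) and *Cdh5* (-4.72, 0.002136), of which *Ptprb* and *Cdh5* are endothelial genes, *Sema3g* and *Ptprb* were among the 10 genes that led the general capillary cluster and *Sema3c* separated the capillary clusters above. The part of free endothelial RNA in these counts was not tested. Among the 13 VEGF-induced genes tested in each class, 2 were higher and 1 lower in fibroblasts of primary tumor than of lung (5.64% and 7.16% of all genes), 1 was lower in fibroblasts of metastasis than of lung (0.444%) and 3 were lower in macrophages of primary tumor than of lung (8.17%).

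Among the stromal subclusters *Vegfa* was uneven. An unnamed subcluster of 196 cells, 193 of them from primary tumors (172 from replicate 6) and led by the heat shock genes *Hspa1b* and *Hspa1a* and by *Ndrg1*, *Ero1l* and *Slc2a1*, held *Vegfa* at 1414 CPM (1348 to 1482) and *Pgf* at 109.6 CPM (91.9 to 130). A second unnamed subcluster of 199 cells, 197 of them from primary tumors, held *Vegfa* at 489 CPM (452 to 528). The subclusters named by fibroblast markers held 107 CPM (85.3 to 134) and 71.0 CPM (53.5 to 92.5). A subcluster named pericyte (143 cells, led by *Rgs5*, *Myh11* and *Higd1b*) had 9 of 9 pericyte markers and 7 of 8 smooth muscle markers raised. Pericytes and smooth muscle cells were therefore not told apart in it. It held *Flt1* at 328 CPM (291 to 368), *Nrp1* at 332 CPM (295 to 373), *Pgf* at 114 CPM (92.8 to 139) and *Kdr* at 8.07 CPM (3.25 to 16.6). Mesothelial cells (59 cells, named by *Msln* and *Upk3b*) held *Kdr* at 176 CPM (135 to 225) with *Flt1* at 5.58 CPM (0.676 to 20.2).

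In the reported fit of sorted MM cells, *Pgf* had the largest log2 difference of the members between sites. Without metastasis replicate 5, which leaves 1 metastasis library, the differences of *Flt1* (3.03) and *Nrp2* (-3.03) were larger. *Pgf* was 58.3 and 56.7 CPM in metastasis and 11.9 and 13.4 CPM in primary tumor, a 4.17-fold difference (log2 2.06, SE 0.34) with an unadjusted p of 5.269e-05 and an adjusted p = 0.3376 by edgeR, so it was not called. None of the 7 genes tested was called, where 0% of 14414 genes were, with 1 at an unadjusted p under 0.05. DESeq2 called 1 of them (*Pgf*, adjusted p = 0.0002068) and 27 of 14414 genes in all. *Pgf* was also called by edgeR with the replicate block (adjusted p = 0.000676), where 49 of 14414 genes were. In thinned cells, pooled over libraries, 5.23% of metastasis MM cells (4.83 to 5.65%, median depth 4015 UMIs) and 1.18% of primary tumor MM cells (1.07 to 1.29%, 1719) held a *Pgf* UMI, against 20.4% and 2.66% without thinning and 0.0611% in lung B cells (0.00155 to 0.340%).

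*Vegfa* of MM cells measured 112 and 35.5 CPM in metastasis and 37.9 and 42.8 CPM in primary tumor, and *Nrp2* 10.5 and 54.7 against 49.3 and 111 CPM. The sites overlapped for both genes, with log2 differences of 0.69 (SE 0.46) and -1.26 (SE 0.58), both with an adjusted p = 0.9996 by edgeR. *Nrp2* was lower in metastasis in each same-numbered pair, and with the replicate block its difference was -1.66 (SE 0.46, adjusted p = 0.08039 by edgeR). With 1 library left out it ranged from -3.03 to -0.58. *Vegfc* (2.99 and 7.33 against 4.68 and 7.45 CPM) and *Nrp1* (17.9 and 16.2 against 8.08 and 16.7 CPM) were low, with log2 differences of -0.16 (SE 0.48) and 0.38 (SE 0.38). *Flt1* measured 2.49 and 0.449 against 0.139 and 0.442 CPM (1.88, SE 1.21, adjusted p = 0.9996 by edgeR), *Vegfb* differed by 0.29 (SE 0.39), and *Kdr* and *Flt4* were too low to be tested. Metastasis replicate 4 rests on 383 MM cells. No pathway partner, VEGF-induced gene or hypoxia gene of the lists was called between the sites by edgeR.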

How the data were processed

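RNA of single cells was counted with the 10x Genomics 3′ v3.1 chemistry in 24 library names, and all values come from 1 deposited matrix of raw UMI counts. As the authors describe, reads were aligned and counted with Cell Ranger 6.1.1 on GRCm38 and handled in Seurat 3.2.2, and cells with extreme mitochondrial share, ribosomal share or gene number were removed, so cells of low RNA content may be missing. A deposited table of log-normalized values was not used. Of 110283 barcodes, 9924 under 5 library names repeated the barcodes and counts of another library and were dropped, among them 1 of sorted MM cells, and the 2 and 3 names of replicates 1-3 were summed in each tumor tissue, leaving 16 libraries. The study describes more cells than this matrix holds. For unchallenged lung replicate 1, metastasis MM replicate 5 and primary tumor MM replicates 4 and 5 the library name carries another number than the sample label. These were matched through the mouse of a numbered TME library or, for the lung, as the last name left.

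Cells were clustered with scanpy 1.11.5 (2000 variable genes, 17 principal components, 20 neighbors, Leiden resolution 0.5) and clusters were named by at least 3 marker genes of a cell type. No doublet caller was run, and 31 cells of a mixed cluster stayed unnamed. A subcluster was called mixed where at least 3 markers of another cell type were raised, and more than of any list of its own kind. UMIs were summed per library and cell type where at least 20 cells were present. These sums were tested with the quasi-likelihood test of edgeR 4.0.16 (R 4.3.3) over all genes that passed its filter, with Benjamini-Hochberg adjustment and a threshold of 0.05, 2-sided. DESeq2 1.42.0 was the other tool. Before logs of levels were taken, 1 CPM was added, and a zero allows 3 counts. Intervals and floors cover counting error only.

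The library names kept give different mice to the libraries of a group, and 1 library can hold several mice, so p-values measure the spread between libraries. By the library names kept, replicates 5 and 6 of metastasis and primary tumor came from the same mice, replicates 1-3 shared mice, and replicate 4 and the lungs did not. Of the sorted MM cells, replicate 5 came from 1 mouse and replicate 4 from different mice. Same-numbered endothelial libraries of metastasis and primary tumor deviated together with r = 0.143, 0.00167, 0.157 and 0.157 (replicates 1-3, 4, 5 and 6). The run in the library names also follows the number, and the labels do not say which step a run stands for. The replicate block was therefore an alternative, except between capillary clusters of the same libraries.

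The 9 genes and the lists (34 pathway partners, 14 VEGF-induced genes, 20 hypoxia genes) were chosen with earlier results of these data known. The text names the 9 genes in the comparisons in which they were tested, up to 4 called genes of each list with the smallest adjusted p and the 3 genes most similar in profile, of which 1 is not reported here. Fits within single clusters, also of the lists, and without mixed subclusters were added after the data had been seen. Sequences were read from RefSeq (GRCm38.p6).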

Additional observations from a re-analysis of the deposited data

Results flagged for a closer look

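In groups of 4 libraries, 6 of 70 had 1 library far from the others, where chance gives about 1 in 20. *Vegfa* of general capillary cells was 942.4 CPM in unchallenged lung replicate 1 against 494 to 553 CPM in the other replicates. *Vegfa* of lung C1q macrophages was 24.34 CPM in replicate 6 against 3.70 to 7.16 CPM, and *Flt1* of the same cells was 84.08 CPM in replicate 6 against 18.5 to 23.2 CPM. *Vegfb* of metastasis endothelium was 65.35 CPM in replicate 5, the library in which MM markers were also highest, against 14.5 to 20.3 CPM. *Vegfc* of primary tumor endothelium was 99.87 CPM in replicates 1-3 against 52.7 to 55.7 CPM. *Vegfc* of metastasis C1q macrophages was 3.173 CPM in replicates 1-3 and 0 in the others. With zeros in all the others, any value above 0 is flagged by this rule, so this flag does not show a library apart.

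The change from unchallenged lung to primary tumor differed between C1q macrophages and endothelium in a test of the difference itself (edgeR interaction over 14 sums of a class in a library, 11246 genes tested, 1003 called). The difference of the log2 changes, macrophages minus endothelium, was 7.25 for *Vegfa* (adjusted p = 1.667e-05), which was lower in tumor endothelium and higher in tumor C1q macrophages. It was 1.85 for *Nrp1* (0.004368), -2.96 for *Nrp2* (0.0007496), -2.43 for *Flt1* (0.01495), -3.52 for *Flt4* (0.02517) and -4.72 for *Pgf* (0.01307), all by edgeR. Lung C1q macrophages of replicates 1, 4, 5 and 6 held only 1, 1, 2 and 4 *Pgf* UMIs and 0, 0, 1 and 8 *Flt4* UMIs. The sizes for *Pgf* and *Flt4* are therefore not read. Primary tumor C1q macrophages came from replicates 1-3 and 4 only. On the endothelial side, lung was mostly capillary and primary tumor almost wholly of the third cluster. The same test for metastasis against lung gave 3.89 for *Vegfa* (adjusted p = 0.1062 by edgeR). Both classes come from the same libraries and their sums are not independent.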

How the results depend on the processing

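Numbers below are counts of the 9 genes called, beside the count as reported, unless a log2 difference is named. They show how calls move with the setting, and where no share of all genes is given they are not read as a result about the VEGF genes. With the replicate block the endothelium gave 3, 2 and 6 (metastasis against primary tumor, metastasis against lung, primary tumor against lung; reported 4, 2 and 6), with *Nrp1* lost between metastasis and primary tumor. Under the same block fibroblasts of primary tumor against lung gave 2 in place of 1, with *Kdr* added (-2.21, adjusted p = 0.04041 by edgeR), macrophages gave 1, 1 and 2 in place of 1, 1 and 3 (*Kdr* lost), and MM cells 1 in place of 0 (*Pgf*). Without the block the capillary clusters gave 4 in place of 5 (*Flt1* lost). The block changed no other call of the 9 genes.

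DESeq2 gave 3 in place of 2 for endothelium of metastasis against lung (*Nrp1* added), 2 in place of 0 for fibroblasts of metastasis against lung and 1 in place of 0 for MM cells. Over all genes it called 491 of 9568, 884 of 11038 and 27 of 14414 in these comparisons. Without a filter on low counts the counts were 2 for fibroblasts of metastasis against lung, 2 for macrophages of metastasis against primary tumor (reported 1), 3 for macrophages of metastasis against lung (reported 1), 5 for macrophages of primary tumor against lung (reported 3) and 1 for MM cells. In the same order, 780 of 21477, 450 of 21141, 895 of 21141, 2958 of 21141 and 76 of 21154 of all genes were called.

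Settings added after the data had been seen moved the counts as follows. The third endothelial cluster alone gave 1 for metastasis against primary tumor. For metastasis against lung, general capillary cells alone gave 0, also without lung replicate 6, aerocytes alone 1, and all endothelium without mixed subclusters 1. Fibroblasts of primary tumor against lung gave 0 without mixed subclusters. C1q macrophages alone gave 0 for metastasis against primary tumor, with or without lung replicate 6, and 1 for primary tumor against lung without lung replicate 6, where *Flt1* and *Kdr* were too low to be tested. Alveolar macrophages alone gave 0 for metastasis against lung, with 1 metastasis library, which says nothing about stability.

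Leaving out 1 library at a time gave 1 to 4 for endothelium of metastasis against lung (1 without metastasis replicate 6, 4 without metastasis replicate 4), 0 to 1 for fibroblasts of metastasis against lung (1 without lung replicate 5 or 6) and 0 to 3 for fibroblasts of primary tumor against lung (3 without lung replicate 6). It gave 0 to 1 for macrophages of metastasis against primary tumor (0 without either primary tumor library), 0 to 2 for macrophages of metastasis against lung (0 without metastasis replicate 5 or 6 or lung replicate 5 or 6, 2 without lung replicate 1), 1 to 4 for macrophages of primary tumor against lung (1 without either primary tumor library) and 0 to 1 for MM cells (1 without either metastasis library). Where a setting left 1 library in an arm (MM cells, macrophages of primary tumor and alveolar macrophages of metastasis), that library was assumed to vary like the other groups.

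Among log2 differences of at least their SE, or called in either fit, these turned direction, and of them *Kdr* of endothelium was called in the reported fit. Of metastasis against lung, *Vegfc* was 0.25 and 0.22 in general capillary cells (with and without lung replicate 6), *Flt4* -0.013 and -0.029 there and -0.28 in aerocytes, *Nrp1* 0.015 in general capillary cells without lung replicate 6, *Flt1* -0.61 in aerocytes, *Kdr* 0.042 and *Nrp2* -0.12 in the third cluster and *Vegfa* -2.39 in alveolar macrophages. Of primary tumor against lung, *Kdr* was 0.59 in the third cluster. With 1 library left out, *Vegfb* of endothelium ranged from -0.26 to 1.15 (metastasis against primary tumor), *Flt1* and *Kdr* of fibroblasts from -0.56 to 2.33 and from -1.80 to 0.19 (metastasis against lung), *Vegfb* of fibroblasts from -0.090 to 1.02 (primary tumor against lung), *Pgf* and *Flt4* of macrophages from -1.71 to 0.21 and from -0.12 to 1.88 (metastasis against primary tumor), *Pgf* of macrophages from -0.34 to 1.26 (primary tumor against lung) and *Vegfa* of MM cells from -0.27 to 1.33. Smaller differences that were not called also changed sign in some settings, for example *Vegfc* of MM cells (-0.16, and 0.22 without metastasis replicate 4) and *Flt4* between capillary clusters (-0.07, and 0.079 without lung replicate 5). The causes were not tested.

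Over all genes, the calls of metastasis against lung in endothelium went from 356 of 9568 genes tested to 798 of 20267 without the filter. Without it, 21477 genes were tested in place of 11038 (fibroblasts), 21141 in place of 11322 (macrophages) and 21154 in place of 14414 (MM cells). Counts with and without the filter are therefore not on the same base. DESeq2, no filter and the block gave 282, 226 and 134 in place of 53 (fibroblasts, metastasis against primary tumor), 884, 780 and 371 in place of 233 (fibroblasts, metastasis against lung), 535, 895 and 413 in place of 203 (macrophages, metastasis against lung) and 27, 76 and 49 in place of 0 (MM cells). For macrophages of metastasis against primary tumor DESeq2 gave 210 and no filter 450 in place of 55, and the block also gave more. No filter gave 2313 in place of 1413 and 2958 in place of 1605 (fibroblasts and macrophages, primary tumor against lung), and no block 1795 in place of 3817 (capillary clusters). Of the levels recomputed, 58 moved by more than the spread and 716 did not. Of the shares of cells with a UMI, 252 moved without thinning and 144 did not. Fibroblasts and MM cells rest on 2 or 3 libraries a group.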
